A study of Mus musculus with 16 samples.

Results

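The mammalian circadian clock is a transcription loop, and 10 of its genes were followed across the small intestine of mice with and without Neurog3: Arntl, Clock, Npas2, Per1, Per2, Per3, Dbp, Nr1d1, Ciart and Bhlhe40. They were taken by a list of mouse gene symbols that was chosen with earlier results of these data known. All 10 were found among the 55359 genes of the read count table. The 16 RNA libraries, 4 in each of 4 groups, came from duodenum and ileum of 8 mice, all of them adult C57BL/6N males fed standard chow. The mutants were Neurog3f/f; Villin-CreERT2, in which tamoxifen activates a Cre recombinase expressed from the Villin promoter, active in gut epithelium, that deletes Neurog3. This gene encodes a transcription factor without which enteroendocrine cells do not form. The controls were Neurog3f/f, that is, they carried the same floxed alleles without the Cre transgene, so that effects of Cre and of the loss of Neurog3 cannot be told apart. Tissue was collected 18 weeks after tamoxifen, and the labels do not say separately whether the controls received it. The hour of collection is not given in the sources used here. Every animal gave a duodenal and an ileal library, so the 4 control animals (NF17, NF29, NF32, NF152) and the 4 mutant animals (NFVCT27, NFVCT38, NFVCT153, NFVCT190) are the replicates.

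In the clock, BMAL1 (the product of Arntl) pairs with CLOCK or with its relative NPAS2 and switches on genes that carry E-boxes, among them the Per genes, Nr1d1, Dbp, Ciart and Bhlhe40. The products of the Per genes, together with the cryptochromes, feed back on the activator, and the nuclear receptor REV-ERB alpha, made from Nr1d1, represses Arntl through ROR elements. As a result Arntl and Npas2 run at another time of day than the Per genes and Dbp in most peripheral tissues. The gut has such a clock of its own, which follows feeding time and is known for daily rhythms of sugar and peptide transporters.

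The E-box (CACGTG), the D-box (TTATGTAA or TTACGTAA, bound by DBP and its relatives) and the core of the ROR element (TAGGTCA) were searched on both strands in the 250 bases before the start sites that RefSeq gives on GRCm38.p6. RefSeq entries were matched for 8 of the 10 genes, and Per2 and Bhlhe40 had none. An E-box was found in 2 of the 8 genes, Ciart with 3 copies and Per1 with 1, and a D-box in 1, Per3 with 2 copies, and no match overlapped another. The ROR core was found in none within this window. Bases after the start sites or farther before them were not searched, and neither were variants of these exact letters. A motif missing here may therefore lie outside the window, run past its edge or differ in its letters. Among all 32851 promoter entries of this length, 6.02% held the E-box, 0.931% the D-box and 2.23% the ROR core. These shares are per promoter entry, while a gene was counted when any of its start sites held a match. Per1 held its E-box at 1 of 2 start sites. The 3 promoters with a match are shown 5′ to 3′ because they carry the letters through which the loop is known to act, with the matches in capitals. That of Ciart lies at chr3:95882229-95882478 on the minus strand, that of Per1 (its first start site) at chr11:69098699-69098948 on the plus strand and that of Per3 at chr4:151044666-151044915 on the minus strand.
Ciart: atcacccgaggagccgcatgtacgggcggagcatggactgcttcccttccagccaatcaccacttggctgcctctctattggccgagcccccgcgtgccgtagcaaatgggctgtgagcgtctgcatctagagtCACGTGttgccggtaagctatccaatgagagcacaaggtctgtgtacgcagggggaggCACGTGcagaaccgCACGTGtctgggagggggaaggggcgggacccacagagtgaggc
Per1: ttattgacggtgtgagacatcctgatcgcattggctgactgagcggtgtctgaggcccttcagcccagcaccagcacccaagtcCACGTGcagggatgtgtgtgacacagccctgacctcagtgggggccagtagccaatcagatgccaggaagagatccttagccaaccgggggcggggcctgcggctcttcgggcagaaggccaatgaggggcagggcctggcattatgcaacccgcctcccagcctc
Per3: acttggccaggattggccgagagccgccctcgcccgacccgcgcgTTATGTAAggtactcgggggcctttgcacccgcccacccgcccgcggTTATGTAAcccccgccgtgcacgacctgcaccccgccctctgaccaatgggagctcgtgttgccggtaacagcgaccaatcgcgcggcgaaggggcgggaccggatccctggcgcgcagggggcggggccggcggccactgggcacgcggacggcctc
The E-boxes of Ciart begin 116, 58 and 44 bases before its start site, and that of Per1 begins 166 bases before. The D-boxes of Per3 begin 205 and 158 bases before. A match is a string of letters and not a measured binding site.

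The libraries held between 8213889 and 35076714 counts, and the 10 clock genes together received between 3567 and 15928 counts in each. Neurog3 had 12 to 37 counts in the control duodenal libraries and 8 to 27 in the control ileal ones, and no count in any of the 8 mutant libraries, where a count of 0 allows up to 3. Enteroendocrine markers were lower in the mutants for 8 of 11 tested in duodenum and 12 of 12 in ileum, and the 5 ileal identity markers were all higher in control ileum than in control duodenum, with Fgf15 and Osr2 at 0 in the latter. Sample content differed between groups. Markers of pancreatic acinar cells took 6.44 to 14.4% of counts in control duodenum and 1.74 to 18.2% in mutant duodenum, against at most 0.808% in ileum. Markers of smooth muscle summed to 2560 to 3740 CPM (read counts scaled to a common library size by TMM) in control ileum and to 4450 to 6020 in mutant ileum, with 6 of the 8 markers higher and none at 0. Markers of T and NK cells summed to 244 to 325 CPM in control duodenum and 54.5 to 140 CPM in mutant duodenum (4 of 10 lower), and to 115 to 198 CPM in control ileum and 34.2 to 155 CPM in mutant ileum (2 of 10 lower), with none at 0. Markers of myeloid cells summed to 264 to 286 CPM in control duodenum and 135 to 245 CPM in mutant duodenum. In ileum they summed to 279 to 324 CPM in controls and 186 to 246 CPM in mutants. Of these 6 markers none was called in either tissue, and 2 were lower in the average over tissues. Ileal identity markers summed to 3080 to 5300 CPM in control ileum and 1550 to 2650 CPM in mutant ileum. None of the 5 was called there, and 1 was lower in the average. Fabp6 had a mean of 3020 CPM in control and 796 CPM in mutant ileum, and Slc10a2 1250 and 1190 CPM. Of 8 epithelial markers 1, Krt18, was higher in mutant ileum (log2 fold change 0.57, edgeR adjusted p = 0.0325). In bulk tissue fewer cells of a type and less RNA per cell cannot be told apart, and these contents are given again beside the results they move with.

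Per kilobase of exon, the most abundant clock transcripts in control duodenum were those of Dbp (20.4 ± 7.35 CPM per kilobase, SD, n = 4), Bhlhe40 (19.6 ± 4.86) and Nr1d1 (17.6 ± 4.28), whose ranges over animals overlapped. Clock (9.85 ± 1.04) came next, below the lowest value of those 3 genes, and its range overlapped that of Per2 (7.68 ± 1.89). Per1 had 6.50 ± 1.13 CPM per kilobase. Well below these stood Arntl (1.80 ± 0.595), Npas2 (1.69 ± 0.749), Per3 (1.60 ± 0.384) and Ciart (1.43 ± 0.491), with overlapping ranges. The order in control ileum was a different one. Bhlhe40 (11.6 ± 1.31 CPM per kilobase), Nr1d1 (11.3 ± 2.58) and Clock (10.9 ± 0.510) overlapped at the top, above Dbp (6.70 ± 1.64). Arntl (4.69 ± 0.510) overlapped Dbp above it and Per2 (3.39 ± 1.03) and Per1 (3.15 ± 0.966) below it, and Npas2 had 3.15 ± 0.560. Per3 (0.955 ± 0.259) and Ciart (0.549 ± 0.114) were the lowest and did not overlap each other. In mutant duodenum the levels ran from 22.7 ± 3.04 CPM per kilobase for Bhlhe40 to 1.64 ± 0.498 for Npas2. In mutant ileum Bhlhe40 stood alone at 24.3 ± 3.10 CPM per kilobase, with its lowest library (19.8) above the highest of Nr1d1 (17.2).

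**Figure D1:**
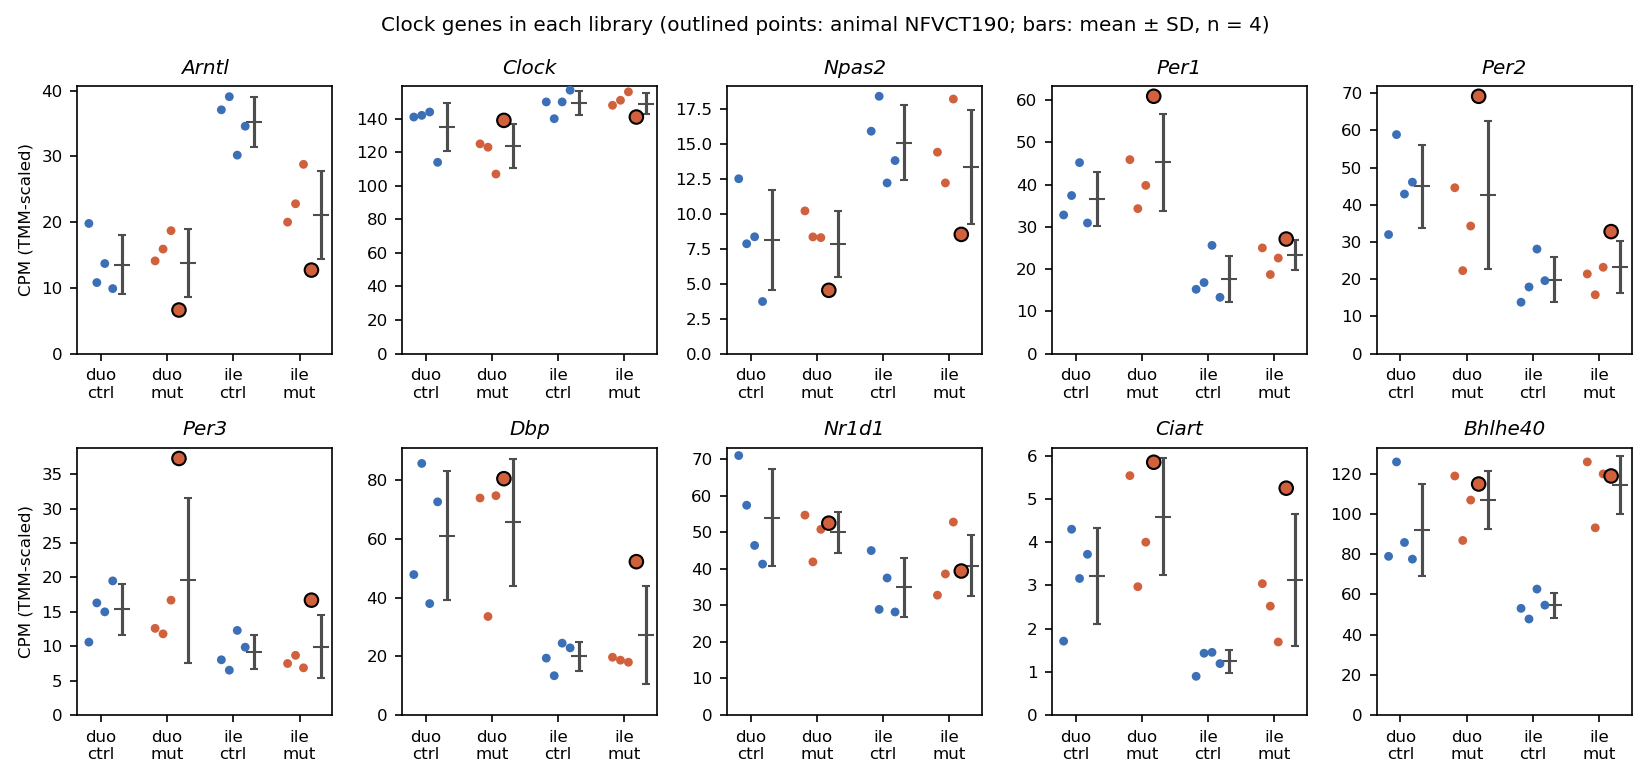
Level of each of the 10 clock genes in every library, in CPM (TMM-scaled; each axis starts at 0), for duodenum (duo) and ileum (ile) of controls (ctrl, blue) and mutants (mut, orange); bars are mean ± SD of 4 animals and outlined points are animal NFVCT190. Bhlhe40 lies between 47.8 and 62.7 CPM in control ileum and between 93.2 and 126 CPM in mutant ileum, while Clock stays between 107 and 157 CPM throughout.

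The comparison of genotypes within the ileum asks how the clock genes stand in the distal gut without Neurog3. Bhlhe40, which encodes the E-box repressor DEC1, rose 2.07-fold and Ciart, which encodes the BMAL1-binding repressor CHRONO, rose 2.59-fold in the mutants, and the other 8 genes did not pass the test. The threshold throughout was a Benjamini-Hochberg adjusted p of 0.05 over all genes tested, in edgeR's quasi-likelihood test. Calls were made for 2 of the 10 clock genes, both higher, where 3.28% of all 14951 genes tested were called. The median log2 change of the 10 genes was 0.21, and that of all genes tested was -0.006.

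Bhlhe40 had 53.1, 47.8, 62.7 and 54.7 CPM in control ileum (NF17, NF29, NF32 and NF152) and 126, 93.2, 120 and 119 CPM in mutant ileum (NFVCT27, NFVCT38, NFVCT153 and NFVCT190). Every mutant library lay above every control library. The log2 fold change was 1.05 (SE 0.12, edgeR adjusted p = 0.000242), and it stayed past the threshold when any 1 of the 8 animals was left out. An antisense transcript, 0610040F04Rik, shares 2.51% of the exon bases of Bhlhe40, and the strand setting of the counting is not given in the sources used here.

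Ciart is a low gene, with 15 to 98 counts per mutant ileal library and 16 to 28 per control one. It had 0.896, 1.43, 1.45 and 1.19 CPM in the controls and 3.04, 2.52, 1.69 and 5.25 CPM in the mutants, in the order of animals above. The groups did not overlap, but NFVCT153 lay close to the controls and NFVCT190 far above them. Its log2 fold change was 1.38 (SE 0.34, edgeR adjusted p = 0.0416). The call was lost in 7 of the 8 fits that left out 1 animal, all but the one without NFVCT153, and without NFVCT190 the log2 fold change was 0.97 (edgeR adjusted p = 0.155). Without NF17, NF29, NF32, NF152, NFVCT27 and NFVCT38 the edgeR adjusted p was 0.131, 0.0559, 0.0746, 0.0954, 0.0792 and 0.0666.

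The markers of smooth muscle moved with these calls. With the smooth muscle score of each library as a covariate, the log2 fold change of Bhlhe40 was 0.99 (edgeR adjusted p = 0.388) and that of Ciart was 2.74 (edgeR adjusted p = 0.235), and neither was called. That fit called 16 genes of all tested, and the scores of the genotypes do not overlap in ileum, so that genotype and smooth muscle content cannot be told apart there. In mutant ileum 2 of 10 markers of T and NK cells and all 12 enteroendocrine markers were lower as well. Myeloid markers summed to 279 to 324 CPM in control ileum and 186 to 246 CPM in mutant ileum, with none called. Ileal identity markers summed to 3080 to 5300 CPM in control ileum and 1550 to 2650 CPM in mutant ileum, with none called. Of 8 epithelial markers 1 was higher in mutant ileum. The part of these contents in the calls of Bhlhe40 and Ciart was not tested.

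Of the activator arm, Arntl was the gene nearest to the threshold. It had 37.1, 39.1, 30.2 and 34.6 CPM in control ileum and 20, 22.8, 28.8 and 12.7 CPM in mutant ileum. The groups did not overlap, and NFVCT190 held the lowest value. The log2 fold change was -0.77 (SE 0.20, nominal 95% interval -1.17 to -0.37, edgeR adjusted p = 0.0675), short of the threshold. It passed in DESeq2 (adjusted p = 0.00795), in limma-voom (adjusted p = 0.0401), without a filter on low counts (edgeR adjusted p = 4.41e-06) and without NFVCT153 (edgeR adjusted p = 0.0138), and over its alternatives the adjusted p reached 0.423. Clock, the partner of BMAL1, had 140 to 157 CPM in control ileum and 141 to 156 CPM in mutant ileum, a log2 difference of -0.02 (interval -0.20 to 0.15). Npas2, the alternative partner, ranged from 12.2 to 18.4 CPM in controls and from 8.52 to 18.2 CPM in mutants, a log2 difference of -0.21 (interval -0.62 to 0.20).

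The Per genes, which encode the repressors of the core loop, overlapped between the genotypes in ileum. Per1 had 15.2, 16.8, 25.6 and 13.3 CPM in controls and 25.0, 18.7, 22.6 and 27.1 CPM in mutants, a log2 difference of 0.38 (SE 0.20, edgeR adjusted p = 0.381). Per2 differed by 0.22 (interval -0.30 to 0.73) and Per3 by 0.11 (interval -0.46 to 0.69) on the log2 scale. Dbp, which encodes an activator of D-box genes, had 19.4, 13.4, 24.5 and 22.9 CPM in controls and 19.7, 18.7, 18.0 and 52.3 CPM in mutants. A single mutant library, that of NFVCT190, set its log2 difference of 0.43 (SE 0.41, edgeR adjusted p = 0.705), which was -0.12 without that animal. Nr1d1 ranged from 28.2 to 45.0 CPM in controls and from 32.8 to 52.8 CPM in mutants, a log2 difference of 0.21 (interval -0.14 to 0.55). Exons of Dbp share 18.0% of their bases with Sphk2 and those of Nr1d1 8.55% with Thra, each on the opposite strand, so the values of both genes are uncertain by what the partner contributes.

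In duodenum the same question gave no call. None of the 10 clock genes passed the threshold or an unadjusted p of 0.05 in edgeR, and DESeq2 and limma-voom called none either, where edgeR called 0.394% of all 14703 genes tested. The smallest unadjusted p was that of Per1 (0.126), with 32.8, 37.4, 45.2 and 30.9 CPM in controls and 45.9, 34.3, 39.8 and 60.9 CPM in mutants. Its log2 difference was 0.30 (SE 0.18, nominal 95% interval -0.06 to 0.65, edgeR adjusted p = 0.732). Bhlhe40 had 79.0, 126, 85.9 and 77.6 CPM in controls and 119, 86.9, 107 and 115 CPM in mutants. These groups overlapped through NF29 and NFVCT38, and the log2 difference was 0.21 (interval -0.12 to 0.54). Ciart had 1.71, 4.30, 3.16 and 3.72 CPM in controls and 5.54, 2.97, 4.00 and 5.85 CPM in mutants, a log2 difference of 0.48 (interval -0.11 to 1.07).

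The activators spread widely within each genotype of the duodenum. Arntl had 19.8, 10.8, 13.7 and 9.88 CPM in controls and 14.1, 15.9, 18.7 and 6.62 CPM in mutants, a log2 difference of 0.04 (interval -0.58 to 0.66). Npas2 ranged from 3.72 to 12.5 CPM in controls and from 4.52 to 10.2 CPM in mutants, a log2 difference of -0.03 (interval -0.71 to 0.65). For Clock the ranges were 114 to 144 CPM and 107 to 139 CPM, and the log2 difference was -0.14 (interval -0.38 to 0.10). The remaining 4 genes also overlapped between the genotypes. Their log2 differences in duodenum were -0.10 for Per2 (interval -0.75 to 0.56), 0.33 for Per3 (-0.42 to 1.07), 0.10 for Dbp (-0.56 to 0.75) and -0.12 for Nr1d1 (-0.44 to 0.20).

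**Figure D2:**
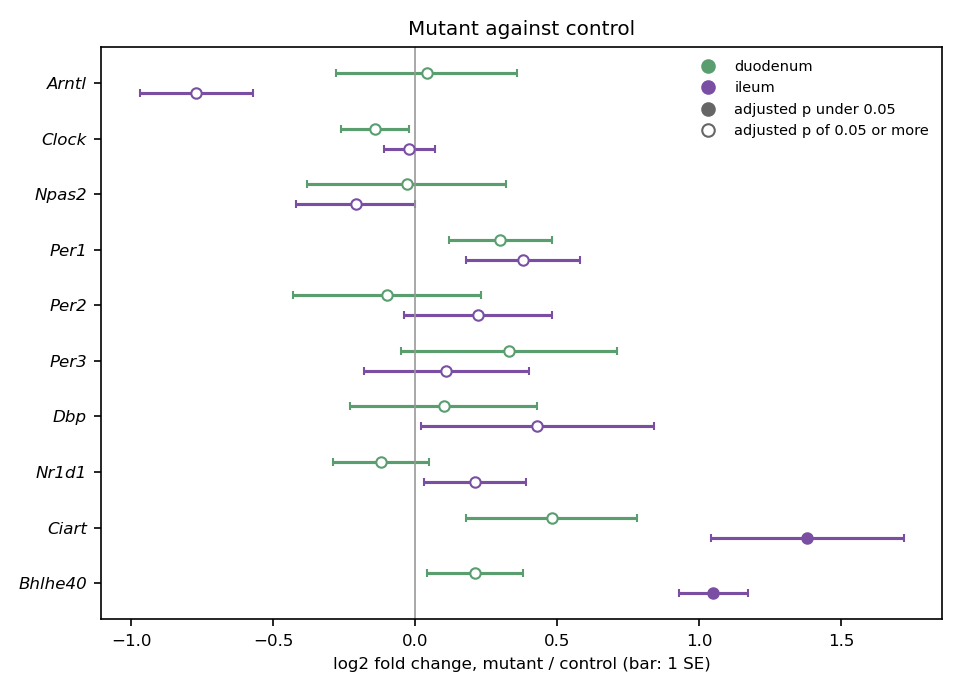
Log2 fold change of mutants against controls for each clock gene in duodenum (green) and ileum (purple), with bars of 1 standard error; filled points passed an edgeR adjusted p of 0.05. The filled points are Bhlhe40 (1.05) and Ciart (1.38) in ileum, and Arntl in ileum (-0.77) lies farthest to the left.

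Whether the genotype effect differed between the tissues was tested as an interaction over all 16 libraries. None of the 10 clock genes was called, where 0.0441% of 15882 genes tested were. Bhlhe40 came closest, with an effect larger by 0.86 on the log2 scale in ileum (SE 0.21, unadjusted p = 0.000769, edgeR adjusted p = 0.314), and it was the single clock gene with an unadjusted p under 0.05. DESeq2 and limma-voom called none of them as well. For Arntl the difference was -0.81 (SE 0.41, edgeR adjusted p = 1) and for Ciart 0.91 (SE 0.48, edgeR adjusted p = 1). The calls of Bhlhe40 and Ciart in ileum are therefore not shown to be larger than their changes in duodenum.

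Averaged over the tissues of each animal, Bhlhe40 was the 1 clock gene called, where 3.11% of 15882 genes were. Its log2 fold change was 0.65 (SE 0.11, limma adjusted p = 0.00605), and the call held in all alternatives run on this average, with adjusted p up to 0.038. Ciart (0.84, SE 0.26, limma adjusted p = 0.118), Per1 (0.36, SE 0.18, limma adjusted p = 0.372) and Arntl (-0.40, SE 0.28, limma adjusted p = 0.576) followed in order of their unadjusted p.

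In controls, 9 of the 10 genes differed between ileum and duodenum: Arntl and Npas2 were higher in ileum, and Per1, Per2, Per3, Dbp, Nr1d1, Ciart and Bhlhe40 were lower. The background of this comparison is large, with 35.9% of 14976 genes called, 17.1% higher and 18.7% lower in ileum. The median log2 difference of the 10 genes was -0.75, and that of all genes tested was 0.014. Each control animal gave a library to either side, and the fit with the animal as a block called the same number of clock genes, 9.

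Arntl rose 2.62-fold from the duodenal values of 19.8, 10.8, 13.7 and 9.88 CPM to the ileal values of 37.1, 39.1, 30.2 and 34.6 CPM in the same animals. Its log2 fold change was 1.39 (SE 0.20, edgeR adjusted p = 0.000195). Npas2 went from 12.5, 7.85, 8.35 and 3.72 CPM to 15.9, 18.4, 12.2 and 13.8 CPM, higher in ileum in each of the 4 animals although the ranges of the tissues overlapped. Its log2 fold change was 0.91 (SE 0.30, edgeR adjusted p = 0.0415), and the call was lost without NF29 (adjusted p = 0.185) or without NF32 (adjusted p = 0.106). Clock, with 141, 142, 144 and 114 CPM in duodenum and 150, 140, 150 and 157 CPM in ileum, was the gene not called (0.15, interval -0.06 to 0.35).

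Dbp fell the most among the 10. It had 47.9, 85.8, 38 and 72.7 CPM in control duodenum and 19.4, 13.4, 24.5 and 22.9 CPM in control ileum, a log2 fold change of -1.60 (SE 0.29, edgeR adjusted p = 0.00315). Ciart fell by 1.41 (SE 0.32, edgeR adjusted p = 0.0036), from 1.71 to 4.30 CPM down to 0.896 to 1.45 CPM. For both genes the tissues did not overlap.

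Per2 had 32, 58.9, 42.9 and 46.1 CPM in control duodenum and 13.8, 17.9, 28.1 and 19.6 CPM in control ileum, a log2 fold change of -1.18 (SE 0.23, edgeR adjusted p = 0.00315). Per1 fell by 1.05 on the same scale (SE 0.20, edgeR adjusted p = 0.0016), again with no overlap. Bhlhe40 fell by 0.75 (SE 0.15, edgeR adjusted p = 0.0022), with every ileal library below every duodenal one. Per3 (-0.74, SE 0.22, edgeR adjusted p = 0.0172) and Nr1d1 (-0.62, SE 0.19, edgeR adjusted p = 0.027) fell with overlapping ranges. The call of Per3 was lost without NF29 (edgeR adjusted p = 0.0728) or NF152 (0.0891), and that of Nr1d1 without NF29 (0.136) or NF32 (0.0575).

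Sample content moved with this comparison as well. All 13 acinar markers were lower and 7 of 8 smooth muscle markers higher in control ileum. Also lower there were 6 of 10 markers of T and NK cells (115 to 198 CPM in sum, against 244 to 325 in duodenum) and 8 of 12 enteroendocrine markers, of which 3 were higher, and 4 of 8 epithelial markers were higher (10100 to 12600 CPM in sum, against 7410 to 9950). Taking the 13 acinar markers out of the counts before scaling left all 9 calls in place. The part of cells other than epithelium in the levels of the clock genes was not tested.

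In the mutants 1 of the 10 genes, Per1, was called between ileum and duodenum by the fit without pairing, where 32.3% of 14950 genes were called. Per1 had 45.9, 34.3, 39.8 and 60.9 CPM in mutant duodenum and 25.0, 18.7, 22.6 and 27.1 CPM in mutant ileum, a log2 fold change of -0.97 (SE 0.18, edgeR adjusted p = 0.00199). With the animal as a block, 6 genes were called, in the directions seen in the controls. These blocked values were 0.61 for Arntl (edgeR adjusted p = 0.00812), 0.75 for Npas2 (0.00842), -0.96 for Per1 (0.000539), -0.82 for Per2 (0.00291), -0.94 for Per3 (0.00344) and -1.37 for Dbp (0.00417). Leaving out NFVCT190, which had the lowest Arntl in both tissues, also gave 6 calls without pairing, those of Arntl, Clock, Npas2, Per1, Per3 and Dbp. Leaving out NFVCT38 gave 2 (Per1 and Per2), leaving out NFVCT153 gave 2 (Per1 and Nr1d1), and DESeq2 called 5 with all animals. Over all genes, the fit without pairing called 4833, the blocked fit 4839 and DESeq2 5247. Without NFVCT190, NFVCT38 and NFVCT153 the genes called were 4489, 2818 and 3787.

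Bhlhe40 did not differ detectably between the tissues of the mutants, with 86.9 to 119 CPM in duodenum and 93.2 to 126 CPM in ileum, a log2 difference of 0.08 (interval -0.19 to 0.34). Ciart differed by -0.52 (interval -1.18 to 0.13) and Nr1d1 by -0.31 (interval -0.61 to -0.01, edgeR adjusted p = 0.142). The interaction given above is also the test of whether the tissue difference changes with genotype, and it called none of the 10.

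**Figure D3:**
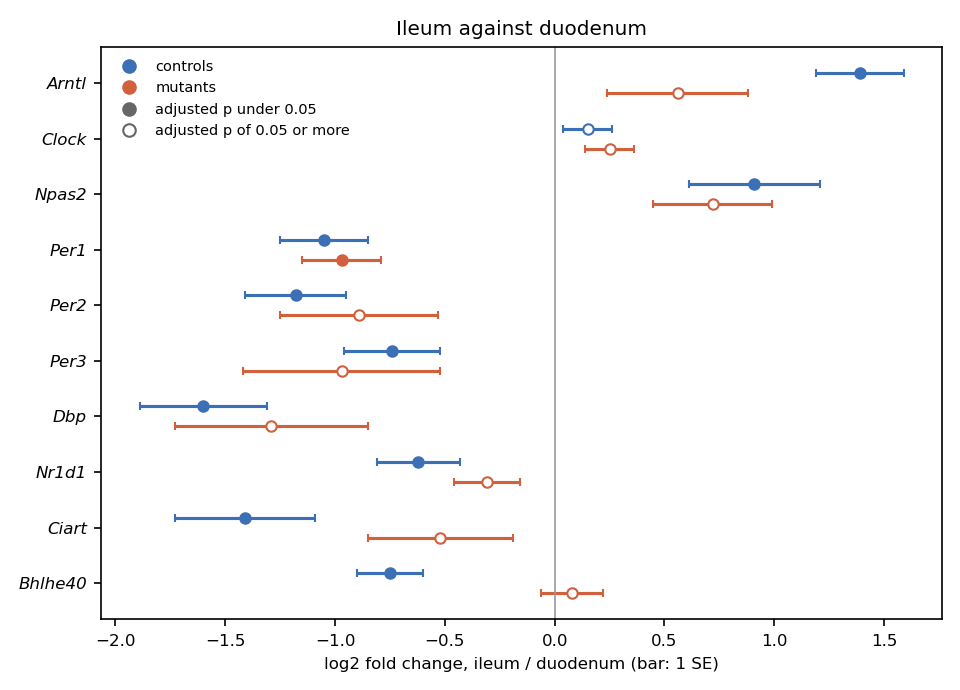
Log2 fold change of ileum against duodenum for each clock gene in controls (blue) and mutants (orange), from the fit without pairing, with bars of 1 standard error; filled points passed an edgeR adjusted p of 0.05. In controls Arntl (1.39) and Npas2 (0.91) lie to the right and 7 genes to the left down to Dbp (-1.60), and in mutants Per1 (-0.97) is the filled point.

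Beyond the groups, the clock genes differed from animal to animal. The deviation of a library from the mean of its group, on the log2 CPM scale, was compared between the duodenum and the ileum of the same animal. For Per1 the deviations of the tissues went together: Pearson's r was 0.87 and Spearman's rank correlation 0.93 over 8 animals, with the same sign in 7 of 8 (exact two-sided permutation of animals within genotype, p = 0.00174, the smallest that the permutations can give, adjusted over 10 genes 0.0174; for the rank correlation adjusted p = 0.0347). Without the 2 animals farthest from the median, NFVCT190 and NF32, r was 0.85. No other clock gene passed.

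Arntl had an r of 0.77 and a rank correlation of 0.69 between the tissues (exact permutation, adjusted p = 0.177), and r was 0.55 without NFVCT190 and NF17. Clock gave a negative r of -0.83 (exact permutation, adjusted p = 0.156), over deviations that were small. Per2 (r = 0.71), Per3 (0.69), Ciart (0.64), Npas2 (0.51) and Nr1d1 (0.40) gave positive values that did not pass, with adjusted p between 0.177 and 0.516 by exact permutation. For Dbp (0.07) and Bhlhe40 (0.05) r was near 0.

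A single animal stood at the extreme for several clock genes, while other animals deviated more for others. In duodenum the widest deviation was that of NF152 for Npas2 (-0.98), of NFVCT38 for Dbp (-0.89) and of NF17 for Ciart (-0.79). NFVCT190, a mutant, had the lowest Arntl of the 8 animals in duodenum (6.62 CPM) and in ileum (12.7 CPM), and the lowest Npas2 in ileum (8.52 CPM). It also had the highest Per1, Per2, Per3 and Ciart in either tissue and the highest Dbp in ileum. Its deviations in duodenum were -0.95 for Arntl, 0.82 for Per2 and 1.09 for Per3, and in ileum -0.66, 0.54 and 0.84. Its Dbp deviated by 1.1 in ileum and by 0.37 in duodenum. The duodenal library of NFVCT190 also had the highest share of acinar markers, 18.2% of counts. In its ileal library the share was 0.476%, against 0.49, 0.0718 and 0.0434% in the other mutant ileal libraries (NFVCT27, NFVCT38 and NFVCT153). In duodenum its epithelial markers summed to 7030 CPM, against 10500 to 13000 CPM in the other mutants. Its myeloid markers there summed to 135 CPM, against 180 to 245 CPM, and its T and NK markers to 54.5 CPM, against 97.4 to 140 CPM. In ileum its epithelial markers summed to 10800 CPM, against 10400 to 12900 CPM in the other mutants. The part of these contents in the pattern of this animal was not tested.

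**Figure D4:**
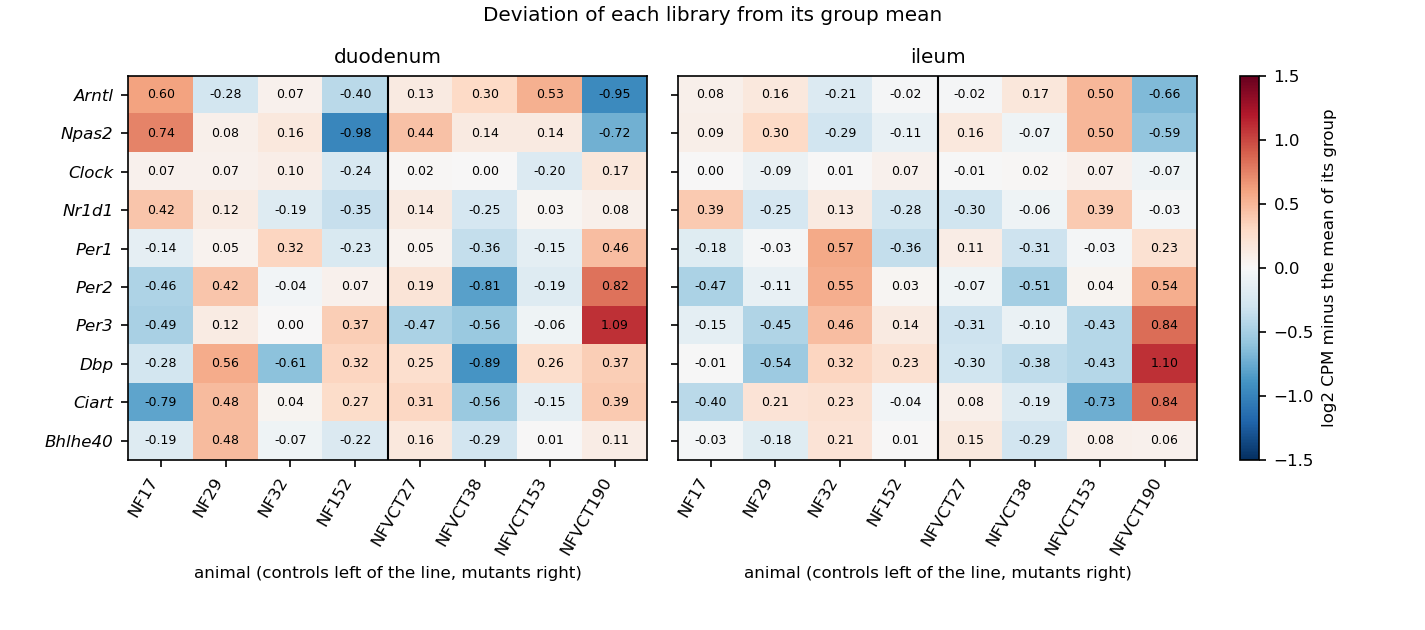
Deviation of each library's log2 CPM from the mean of its group, for 10 clock genes (rows) in 8 animals (columns; controls left of the line, mutants right) in duodenum and ileum; red is above and blue below the group mean. The column of NFVCT190 is blue for Arntl and Npas2 and red for Per1, Per2, Per3, Dbp and Ciart in both tissues.

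The 9 other clock genes were set against Arntl over animals, on the mean deviation of both tissues. Npas2 went with Arntl (r = 0.85, rank correlation 0.90), and Per3 (r = -0.90), Ciart (-0.88), Dbp (-0.80), Per2 (-0.79) and Per1 (-0.53) went against it. None passed after adjustment over the 9 relations by exact permutation: the adjusted p was 0.0625 for Npas2 and for Ciart, 0.125 for Per3, 0.152 for Per2, 0.184 for Dbp and 0.294 for Per1. Spearman's rank correlation was -0.76 for Per2, Per3 and Ciart, -0.71 for Dbp and -0.43 for Per1. Without NFVCT190 and NFVCT153, the animals farthest from the median of Arntl, r was 0.73 for Npas2, -0.78 for Per3, -0.86 for Ciart, -0.70 for Dbp, -0.84 for Per2 and -0.29 for Per1, over 6 animals. The r over all 8 animals was 0.41 for Nr1d1, -0.31 for Clock and -0.31 for Bhlhe40, and without those animals 0.73, 0.57 and -0.46. Their adjusted p over 8 animals lay between 0.294 and 0.536 by exact permutation.

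**Figure D5:**
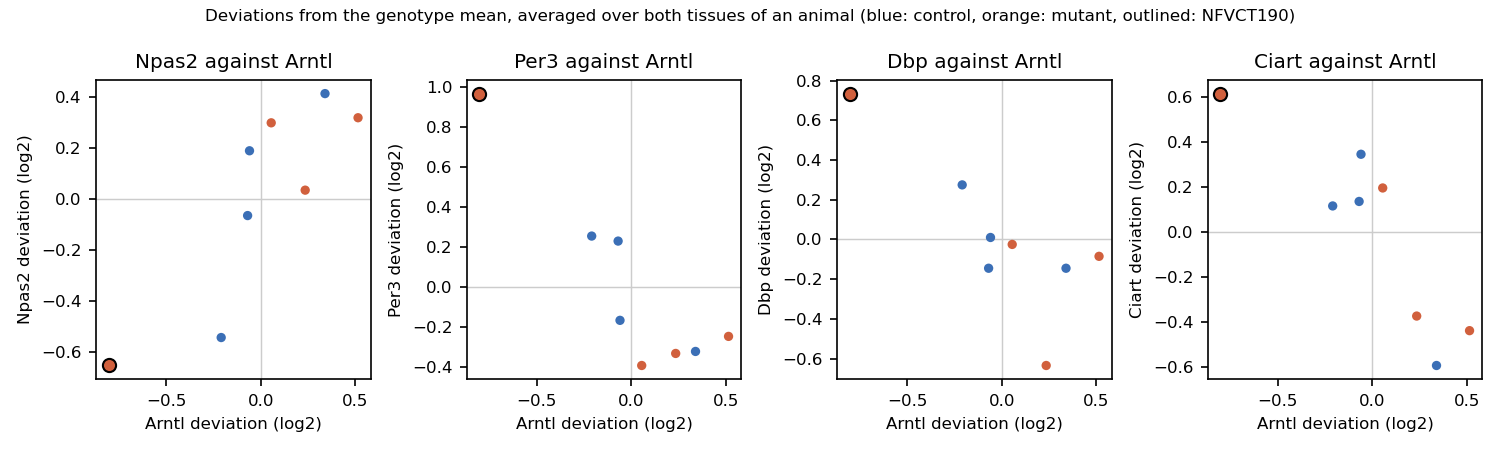
Deviation from the genotype mean of Npas2, Per3, Dbp and Ciart (vertical axes) against that of Arntl (horizontal axis), on the log2 scale and averaged over both tissues of an animal, for 4 controls (blue) and 4 mutants (orange). Npas2 rises with Arntl (r = 0.85), the other 3 fall (r from -0.80 to -0.90), and the outlined animal NFVCT190 lies at the low end of Arntl in each panel.

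A search over named genes placed clock genes among those most and least like Arntl. Predicted genes, pseudogenes, clone names and identifiers without a symbol were left out. The measure was the correlation of deviations from the group means over the 16 libraries among 13186 genes with a mean of at least 1 CPM, given as a description, since libraries of an animal and the depth of a library are shared by all points. Per3 was the most negative of these genes (r = -0.884), ahead of Cryz (-0.884), Ttr (-0.88), Prkaa2 (-0.877) and Cdh19 (-0.861). Ciart was 19th (r = -0.80) and Per2 40th (r = -0.76) from that end. The libraries of NFVCT190 held the lowest deviations of Arntl (-0.95 in duodenum, -0.66 in ileum) and the highest of Per3 (1.09 and 0.84). Ranks without this animal were not computed. The most positive were Ext1 (0.905), Zdhhc3 (0.889), Blzf1 (0.875), Slpi (0.869) and Mon1a (0.864), with Npas2 10th (r = 0.838) and Nfil3, a repressor of D-box genes, 20th (r = 0.811). Nr1d1 gave another picture: the clock gene nearest to its positive end was Npas2, at rank 1126 (r = 0.417). The genes most like it were Zfp827 (0.935), Wdtc1 (0.933), Anapc2 (0.862), Creb3l2 (0.837) and Adgrd1 (0.835), and the least like it were Ap1s2 (-0.919), Kbtbd8 (-0.877), Uba2 (-0.876), Memo1 (-0.875) and Chsy3 (-0.864). The correlation of Nr1d1 with Arntl on this measure was 0.255.

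Of 15 further clock genes (cryptochromes, the second REV-ERB, ROR receptors, D-box factors, kinases and ubiquitin ligases of the loop), none was called between genotypes in duodenum, ileum or their difference. Of all genes tested, 0.394%, 3.28% and 0.0441% were called in these comparisons, so no call among 15 genes is near that share. The smallest p belonged to Btrc in duodenum (log2 difference -0.46, SE 0.17, edgeR adjusted p = 0.42) and to Csnk1e, a kinase of the PER proteins, in ileum (0.24, SE 0.12, edgeR adjusted p = 0.361). In the interaction it belonged to Timeless (-0.41, SE 0.28, edgeR adjusted p = 1), and averaged over tissues to Btrc again (-0.31, SE 0.13, limma adjusted p = 0.267). Their median log2 difference was 0.03 in duodenum and 0.02 in ileum.

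Between control ileum and duodenum 4 of these 15 genes were higher and 2 lower, 6 in all, a share near the 35.9% of all genes called in this comparison. Rora, an activator of Arntl, rose by 0.46 (SE 0.12, edgeR adjusted p = 0.0104), from 16.6 ± 0.813 to 22.9 ± 3.02 CPM (SD, n = 4). The D-box activators Hlf (-0.96, SE 0.27, edgeR adjusted p = 0.0177) and Tef (-0.88, SE 0.24, edgeR adjusted p = 0.0183) fell, as Dbp did. Nfil3, with the next smallest p, rose by 1.30 (SE 0.37, edgeR adjusted p = 0.0234), from 4.45 ± 2.10 to 10.8 ± 3.89 CPM. In the mutants 3 of the 15 were called, where 32.3% of all genes were. Fbxl21, a ligase subunit acting on cryptochromes, rose by 1.19 (SE 0.27, edgeR adjusted p = 0.00639), Hlf fell by 1.31 (SE 0.29, edgeR adjusted p = 0.00742) and Rora rose by 0.58 (SE 0.18, edgeR adjusted p = 0.0315).

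Of 17 genes known as clock outputs in the gut or liver, 16 were tested, and 3 rose and 1 fell in mutant ileum, where 3.28% of all genes were called. This list was chosen with earlier results of these data known, so its calls beside that share do not test for an excess. The smooth muscle content given above moved with this comparison too, and its part in these 4 calls was not tested. The 3 that rose are sugar transporters of the enterocyte. Slc5a1, the sodium-glucose transporter SGLT1, went from 2110 ± 177 to 4160 ± 379 CPM (log2 fold change 0.96, SE 0.12, edgeR adjusted p = 0.000416). Slc2a5, the fructose transporter, rose by 1.03 (SE 0.14, edgeR adjusted p = 0.00145) and Slc2a2, the glucose transporter GLUT2, by 1.35 (SE 0.23, edgeR adjusted p = 0.0133). Abcb1a, a drug efflux pump, fell by 1.34 (SE 0.28, edgeR adjusted p = 0.0418). In duodenum none of the 16 was called, where 0.394% of all genes were. The smallest p there was that of Abcb1a (-0.65, SE 0.28, edgeR adjusted p = 0.53). Averaged over tissues Slc2a2 (0.68, limma adjusted p = 0.0118) and Slc2a5 (0.64, limma adjusted p = 0.0101) were higher and Abcb1a (-0.96, limma adjusted p = 0.01) lower, and the interaction called none, with Slc2a2 nearest (1.38, SE 0.33, edgeR adjusted p = 0.288). Between control ileum and duodenum 2 were higher and 10 lower, where 35.9% of all genes were called, with the smallest p for Slc2a5 (log2 fold change -2.46), Slc2a2 (-2.56), Mttp, a protein of lipoprotein assembly (-1.53), and Por, the reductase of cytochrome P450 enzymes (-2.13). In mutants 6 were lower and none higher, a share near the 32.3% of all genes called there, with the smallest p for Usp2, a deubiquitinase (-2.04), then Slc2a5 (-1.72), Mttp (-1.37) and Por (-1.5).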

How the data were processed

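Total RNA was depleted of ribosomal RNA, made into stranded libraries and amplified by PCR, per the labels' protocols. The deposited values are raw read counts per Ensembl gene in 1 table. The submitters' processing notes name STAR 2.5.3a, HTSeq 0.6.1p1, Bowtie2 2.2.8, cutadapt 1.10 and bcl2fastq 2.20.0.422, with the build mm39. How the counting used strand, and on which annotation release, is not given in the sources used here. Symbols were matched for 52083 of 55359 identifiers, which hold 98.3% of counts. Exon lengths and overlaps came from GENCODE M21 on GRCm38, without coordinates, and promoters from RefSeq on GRCm38.p6.

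Counts were tested with edgeR 4.0.16 (quasi-likelihood F test, TMM scaling, filterByExpr by group with a minimum count of 10, robust prior) in R 4.3.3, on the libraries of each comparison, and adjusted by Benjamini-Hochberg over all genes tested. The standard error is the log2 fold change divided by the square root of F, and nominal 95% intervals follow from it. The average over tissues used limma 3.58.1 on the mean log2 CPM (prior count 2) of an animal. The totals of 8213889 to 35076714 counts leave Ciart with as few as 15 counts in a library. DESeq2 1.42.0, limma-voom, other size factors, no filter, covariates for sample content and leaving out each animal were the alternatives; taking acinar markers out before scaling was added after seeing the data. The tests across genes were checked on simulated data.

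Same-numbered libraries come from the same animal, per the labels. Deviations from group means correlated between the tissues of an animal with r of 0.127 to 0.327 over genes, in all 8 animals. The highest correlation with a library of another animal was 0.218 for NF32 and for NFVCT190, above their own (0.191 and 0.145). The 10 clock genes, the lists (clock partners, clock outputs, glucocorticoid response, immediate early, heat and cold, fasting and feeding) and the marker lists were chosen with earlier results of these data known. All 10 clock genes are described in every comparison. Of a list, up to 4 called genes of smallest p are named, or the 1 of smallest p where none was called. For Arntl and Nr1d1 the 5 genes most like and least like each are named.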

Additional observations from a re-analysis of the deposited data

Results flagged for a closer look

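In 3 of the 40 groups of 4 libraries examined (10 genes in 4 groups), 1 library lay far from the other 3, where chance alone gives about 1 in 20. Clock had 114 CPM in the duodenum of control NF152, against 141 to 144 CPM in the other controls. Dbp had 33.6 CPM in the duodenum of mutant NFVCT38, against 74.0 to 80.6 CPM in the other mutants. Dbp had 52.3 CPM in the ileum of mutant NFVCT190, against 18.0 to 19.7 CPM in the other mutants, and this is the animal with the lowest Arntl in both tissues.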

How the results depend on the processing

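Over the 10 clock genes, 667 of 740 values under alternatives kept direction and side of the threshold, 15 lost a call, 20 gained one, and 38 uncalled values changed sign or came to 0. No called value changed sign. In ileum the clock genes called were 0 with the smooth muscle covariate and 1 to 3 with an animal left out; in the mutant tissue comparison 5 with DESeq2, 6 with the replicate block and 1 to 6 with an animal left out. The replicate block changed no other call among the clock genes. Over all genes, DESeq2 called 310 (duodenum), 875 (ileum) and 38 (interaction), and the fits with no filter 169, 1096 and 15. The replicate block called 16 in the interaction, the smooth muscle covariate 16 in ileum, the fit of all 16 libraries 151 in duodenum, the fit without the libraries of highest acinar share 31 there, and edgeR on summed counts 245 in the average. With an animal left out, the genes called were 27 to 61 (duodenum), 272 to 472 (ileum), 1 to 9 (interaction), 3443 to 4787 (control tissues), 2818 to 4489 (mutant tissues) and 264 to 600 (average). Without the 2 animals farthest from the median, r between tissues turned to -0.07 for Npas2, -0.02 for Dbp and -0.34 for Nr1d1, and r of Clock against Arntl to 0.57. Beyond the constructions that remove samples or genes, the cause was not tested. Other scalings moved the median of all genes by at most 0.013 (log2). Depth limits Ciart most. The 4 animals a group, the unknown hour of collection and the mixed cell content limit all comparisons.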

Other observations

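Lists of genes that respond to hormones, handling or feeding were counted beside the clock genes. These lists were chosen with earlier results of these data known, so their counts of calls do not test for an excess. Of 11 glucocorticoid response genes tested, 3 rose in mutant ileum and none fell, where 3.28% of all genes were called. Smooth muscle markers summed to 2560 to 3740 CPM in control ileum and 4450 to 6020 CPM in mutant ileum, and their part in these calls was not tested. Klf9, a transcription factor, went from 83.7 to 113 CPM in the 4 controls to 125 to 164 CPM in the 4 mutants (log2 fold change 0.58, edgeR adjusted p = 0.0156). Fkbp5, a co-chaperone of the glucocorticoid receptor, rose by 0.90 (edgeR adjusted p = 0.026) and Tsc22d3, which encodes GILZ, by 0.58 (edgeR adjusted p = 0.0337). In duodenum none of the 11 was called, where 0.394% of all genes were. The smallest p there was that of Fkbp5, with a log2 difference of 1.01 and groups that did not overlap (edgeR adjusted p = 0.115). The interaction called none, and averaged over tissues Klf9 (0.48, limma adjusted p = 0.0194) and Tsc22d3 (0.50, limma adjusted p = 0.0288) were higher.

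Of the immediate early genes none was called between genotypes, where 0.394% of all genes were called in duodenum and 3.28% in ileum. The smallest p was that of Nr4a1 in ileum (1.16, edgeR adjusted p = 0.0557) and of Junb in duodenum (0.16, edgeR adjusted p = 0.892). Of the 9 heat and cold genes, Hsp90aa1, a heat shock protein, fell by 0.62 in mutant ileum (edgeR adjusted p = 0.0361), and none was called in duodenum, where Rbm3, a cold-inducible RNA-binding protein, came nearest (0.51, edgeR adjusted p = 0.306). Averaged over tissues Rbm3 was higher (0.58, limma adjusted p = 0.0279) and Hsp90aa1 lower (-0.55, limma adjusted p = 0.0436). Of the fasting and feeding genes none was called in either tissue, with Acot12, an acetyl-CoA hydrolase, nearest in duodenum (-1.46, edgeR adjusted p = 0.207) and in ileum (-1.63, edgeR adjusted p = 0.284). Averaged over tissues Acot12 was lower (-1.77, limma adjusted p = 0.0192).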
